A study of Chlorocebus aethiops with 12 samples.

Results

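NF-κB is a family of dimeric transcription factors that switch on inflammatory and survival genes. In resting cells the dimers are held inactive by inhibitory IκB proteins. An upstream signal leads to the destruction of the IκB protein, the freed dimer enters the nucleus, and several of its targets, the IκB genes among them, then shut the pathway down again. Glucocorticoids acting through the glucocorticoid receptor (GR) are known to restrain NF-κB, and induction of the IκB gene NFKBIA is one of the routes described in other cells. The transcripts described here are those of NF-κB subunits and of proteins that inhibit or regulate the pathway. They were chosen by a list of 10 accessions for 9 genes, and every probe that carries one of them was taken. The arrays held 9 of the 10 accessions, on 11 probes for 9 genes, out of 32379 accessions in all. The tenth, NM_182962, a second variant of BIRC3, had no probe and was skipped. All 9 accessions passed the filter on dim probes, which left 23757 accessions to be tested.

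The samples were COS-1 cells, a fibroblast-like kidney line of the African green monkey, transfected with GR, or with GR plus MDFIC, a protein of the MyoD family inhibitor domain type. The 4 groups, each of 3 biological replicates, were GR cells kept for 6 h in 100 nM dexamethasone (Dex), which is a man-made glucocorticoid and a GR agonist, GR cells with vehicle for 6 h, GR+MDFIC cells with 100 nM Dex for 6 h and GR+MDFIC cells with vehicle for 6 h. Treatment started 48 h after transfection, in medium with charcoal-stripped serum, which is depleted of steroids. Every group carried GR, so the effect of GR itself was not measured, and the labels give neither the promoters of the constructs nor the share of cells that took them up. The labels name no inflammatory stimulus. The comparisons addressed how Dex changed these transcripts in cells with GR, and whether co-expressed MDFIC altered that response.

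Each value is the log2 of a probe's signal relative to the 75th percentile of its array, so that 0 is the level of that percentile. The probes were designed for human transcripts and read monkey RNA, so levels are compared between arrays for 1 probe and never between probes. Between 70.3% and 75.2% of the spots on an array were well above background. The arrays lay on 3 slides. Slide 1 held all GR vehicle arrays with GR Dex replicate 1, slide 2 held GR Dex replicates 2 and 3 with GR+MDFIC vehicle replicates 1 and 2, and slide 3 held GR+MDFIC vehicle replicate 3 with all GR+MDFIC Dex arrays. Slide 3 was dimmer, with a mean 75th percentile signal of 386, against 850 on slide 1 and 868 on slide 2. It was also extracted with another software version after 2 scan passes, against 1 on the other slides, and since it held all GR+MDFIC Dex arrays, these differences cannot be told apart from that group except through its 1 vehicle array. The Dex effect within a slide could be read from slide 1 for GR cells (1 Dex array against 3 vehicle arrays) and from slide 3 for GR+MDFIC cells (3 Dex arrays against 1 vehicle array). The other genes of the pathway, the cell type's markers and the 2 transfected genes were not looked up, since the files pair accessions with no gene names.

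In GR cells, Dex raised NFKBIA and TNIP1 and lowered TNFAIP3. These 3 of the 9 transcripts were called by limma at a Benjamini-Hochberg adjusted p under 0.05, against 7.17% of all transcripts tested (4.4% called higher and 2.77% lower). In GR+MDFIC cells 5 were called, with NFKBIA and TNIP1 higher and TNFAIP3, RELB and RELA lower, against 13.5% of all tested (6.6% higher and 6.94% lower). With slide as a fixed block, which reads the effects from slides 1 and 3, NFKBIA and TNFAIP3 were called in both, 2 of the 9 each time, against 3.56% of all transcripts in GR cells and, for GR+MDFIC cells, 3.41%. In bulk RNA, fewer cells that carry a transcript and less of it in each cell cannot be told apart. The Dex and vehicle groups did not overlap for 5 of the 9 in GR cells (26.2% of all tested) and for 6 of the 9 in GR+MDFIC cells (32.2%). The median of the 9 log2 folds was 0.04 in GR and 0.08 in GR+MDFIC cells, against 0.01 and -0.01 over all tested. Their median size without regard to sign was 0.20 and 0.23, against 0.11 and 0.15. The 0.20 is that of NFKBIZ, whose dim probe passed the filter only through its Dex groups. The 2 Dex effects share no arrays. They use the same estimate of the spread.

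**Figure D1:**
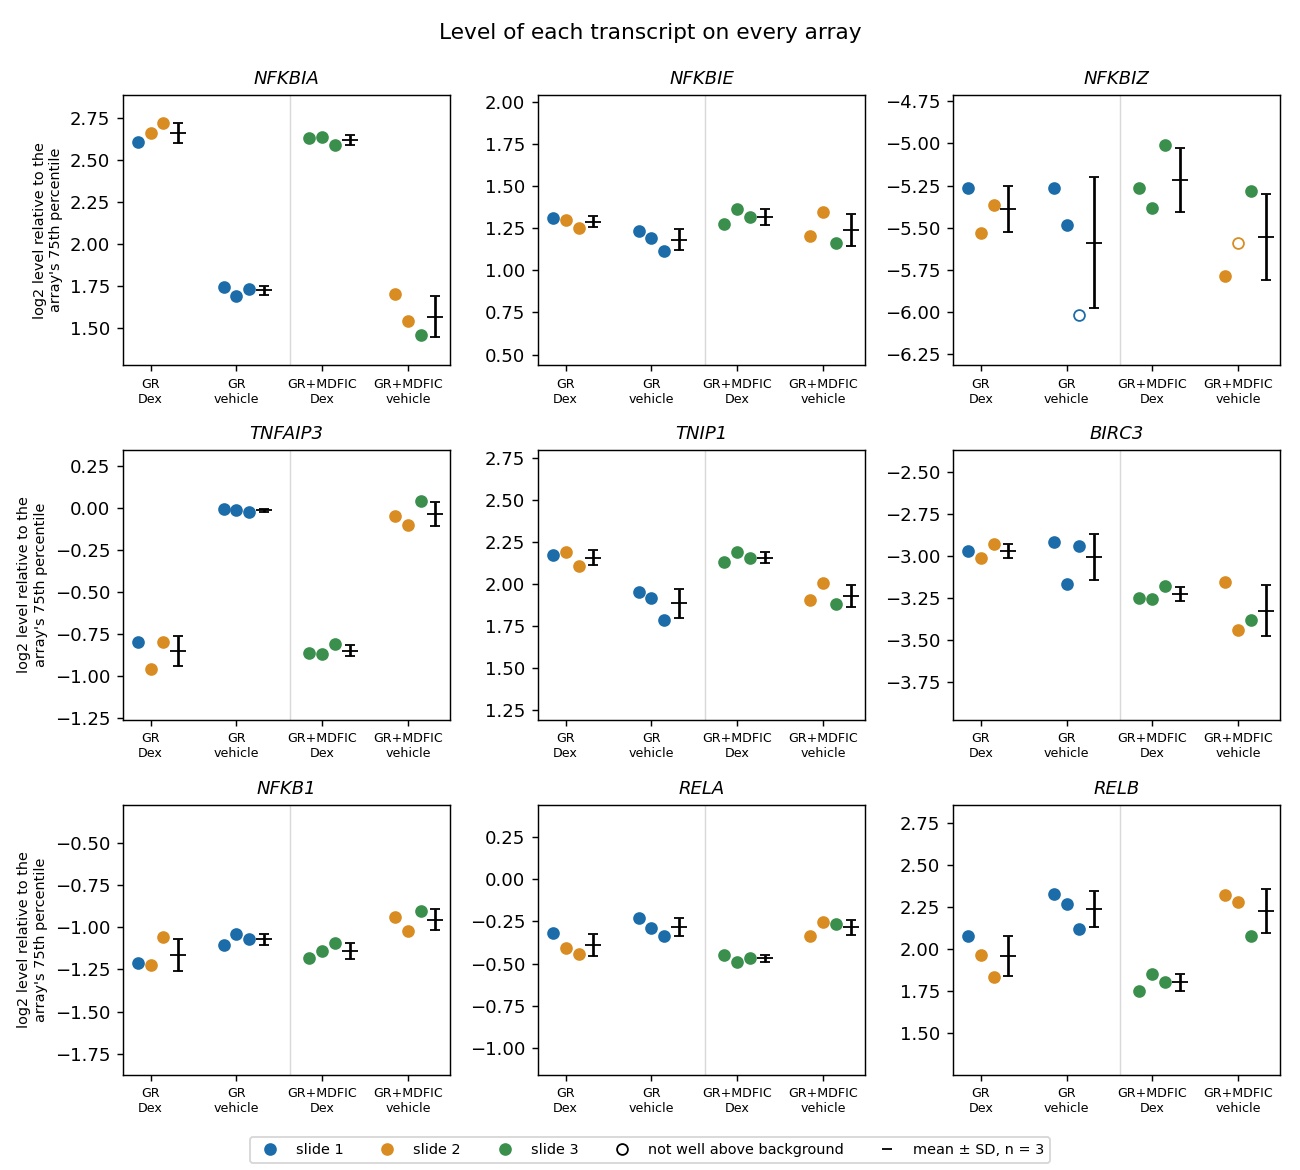
Level of each of the 9 transcripts (log2, with the 75th percentile of the array at 0) on all 12 arrays, coloured by slide, with the mean ± SD of each group (n = 3). Open points are spots not well above background; each panel spans at least 1.6 on its own axis. NFKBIA lies at 2.58 to 2.72 on the 6 Dex arrays and at 1.46 to 1.74 on the 6 vehicle arrays, and TNFAIP3 separates the other way.

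Among the inhibitors, NFKBIA (NM_020529) encodes IκBα, the classical cytoplasmic inhibitor of NF-κB. Its level was 2.60, 2.66 and 2.72 on the GR Dex arrays, against 1.74, 1.69 and 1.73 on the GR vehicle arrays. With MDFIC co-expressed, the values were 2.63, 2.64 and 2.58 with Dex, against 1.70, 1.54 and 1.46 with vehicle. Every Dex array lay above every vehicle array, and the Dex levels of the 2 kinds of cells overlapped. NFKBIA rose 1.91-fold in GR cells, a log2 fold of 0.94 ± 0.06 (SE, limma, adjusted p = 1.83e-05). It rose 2.07-fold in GR+MDFIC cells, a log2 fold of 1.05 ± 0.06 (SE, limma, adjusted p = 6.62e-06). The rise exceeded 98.5% of all tested folds in GR and 96.2% in GR+MDFIC cells. Within slides the log2 fold was 0.88 and 1.16, and limma with slide as a fixed block kept both calls (adjusted p = 0.000997 and 0.000228).

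NFKBIE (NM_004556) encodes IκBε, another cytoplasmic inhibitor. Its levels were 1.31, 1.30 and 1.25 on the GR Dex arrays, against 1.24, 1.19 and 1.11 on the GR vehicle arrays. The GR+MDFIC Dex arrays gave 1.27, 1.36 and 1.31, against 1.21, 1.35 and 1.16 on the GR+MDFIC vehicle arrays. The groups in GR cells were apart by a gap of 0.01, and those in GR+MDFIC cells overlapped. Neither its log2 fold of 0.11 ± 0.06 (SE) in GR cells nor that of 0.08 ± 0.06 in GR+MDFIC cells passed (limma, adjusted p = 0.366 and 0.368). The 95% intervals ran from -0.02 to 0.23 in GR cells and from -0.05 to 0.21 in GR+MDFIC cells, both ending below the interval of NFKBIA. Within slides the log2 fold of NFKBIE was 0.13 and 0.15.

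NFKBIZ (NM_031419) encodes IκBζ, an atypical nuclear IκB that binds NF-κB on chromatin. Its probe was dim, well above background on 10 of 12 arrays, the exceptions being GR vehicle replicate 3 and GR+MDFIC vehicle replicate 2. It therefore passed the filter on dim probes only through the Dex groups. It read -5.26, -5.53 and -5.36 on the GR Dex arrays, against -5.26, -5.49 and -6.02 on the GR vehicle arrays. In GR+MDFIC cells it read -5.26, -5.38 and -5.01 with Dex, against -5.79, -5.59 and -5.28 with vehicle. The groups overlapped in both kinds of cells. Its log2 fold was 0.20 ± 0.20 (SE) in GR and 0.34 ± 0.20 in GR+MDFIC cells (limma, adjusted p = 0.678 and 0.268). With 95% intervals from -0.24 to 0.65 and from -0.11 to 0.78, a change as small as the 0.27 of TNIP1 could not be detected on this probe. Without GR vehicle replicate 3 the fold in GR cells was -0.01, and within slides the values were 0.32 in GR cells and, for GR+MDFIC cells, 0.07.

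Of the regulators, TNFAIP3 (NM_006290) encodes A20, a ubiquitin-editing enzyme that damps signalling from the tumour necrosis factor receptor to NF-κB. Its brighter probe read -0.80, -0.96 and -0.80 on the GR Dex arrays, against -0.01, -0.01 and -0.02 on the GR vehicle arrays. The GR+MDFIC Dex arrays gave -0.86, -0.87 and -0.81, against -0.05, -0.10 and 0.04 on the GR+MDFIC vehicle arrays. All Dex arrays lay below all vehicle arrays. The transcript thus fell to 0.560 of the vehicle level in GR cells, a log2 fold of -0.84 ± 0.05 (SE, limma, adjusted p = 1.79e-05), and to 0.569 in GR+MDFIC cells, a log2 fold of -0.81 ± 0.05 (SE, limma, adjusted p = 1.52e-05). Only 0.842% of all tested folds were lower in GR and 4.23% in GR+MDFIC cells. Within slides the log2 fold was -0.78 and -0.89 (limma with slide as a fixed block, adjusted p = 0.00146 and 0.000795).

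The second probe of TNFAIP3 was dimmer, well above background on all 12 arrays, and gave the same direction. It read -4.22, -4.37 and -4.35 on the GR Dex arrays, against -3.70, -3.59 and -3.40 on the GR vehicle arrays. With MDFIC co-expressed, the values were -4.41, -4.61 and -4.56 with Dex, against -3.42, -3.65 and -3.65 with vehicle. Here too no Dex array reached a vehicle array. On the GR+MDFIC Dex arrays, all on the dimmer slide 3, the signal of this second probe before scaling was only 15.5 to 17.6. With each of the 30179 probes fitted on its own, its log2 fold was -0.76 ± 0.09 (SE) in GR and -0.95 ± 0.09 in GR+MDFIC cells (limma, adjusted p = 0.00118 and 0.000194), where 6.75% and 12.9% of all probes were called.

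TNIP1 (NM_006058) encodes ABIN-1, a ubiquitin-binding partner of A20 that also restrains NF-κB. Its brighter probe read 2.17, 2.19 and 2.10 on the GR Dex arrays, against 1.95, 1.92 and 1.79 on the GR vehicle arrays. In GR+MDFIC cells it read 2.13, 2.19 and 2.15 with Dex, against 1.91, 2.00 and 1.88 with vehicle. The Dex arrays lay above the vehicle arrays in both kinds of cells, by a smaller margin than for NFKBIA. TNIP1 rose 1.21-fold in GR cells, a log2 fold of 0.27 ± 0.06 (SE), and 1.17-fold in GR+MDFIC cells, a log2 fold of 0.23 ± 0.06 (limma, adjusted p = 0.0166 and 0.0252). Its dimmer probe gave 0.29 ± 0.08 (SE) in both, which passed in GR+MDFIC cells only (limma, adjusted p = 0.0385, and 0.0587 in GR cells). Within slides the log2 fold of the brighter probe was 0.29 and 0.28, but with slide as a fixed block neither call was kept (limma, adjusted p = 0.124 and 0.147). The call in GR cells was also lost without GR Dex replicate 1 or 2 or GR vehicle replicate 3 (limma, adjusted p from 0.0602 to 0.0679, log2 fold 0.22 to 0.26), and that in GR+MDFIC cells without any 1 of its Dex arrays or vehicle replicate 1 (limma, adjusted p from 0.0507 to 0.0878, log2 fold 0.21 to 0.24).

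**Figure D2:**
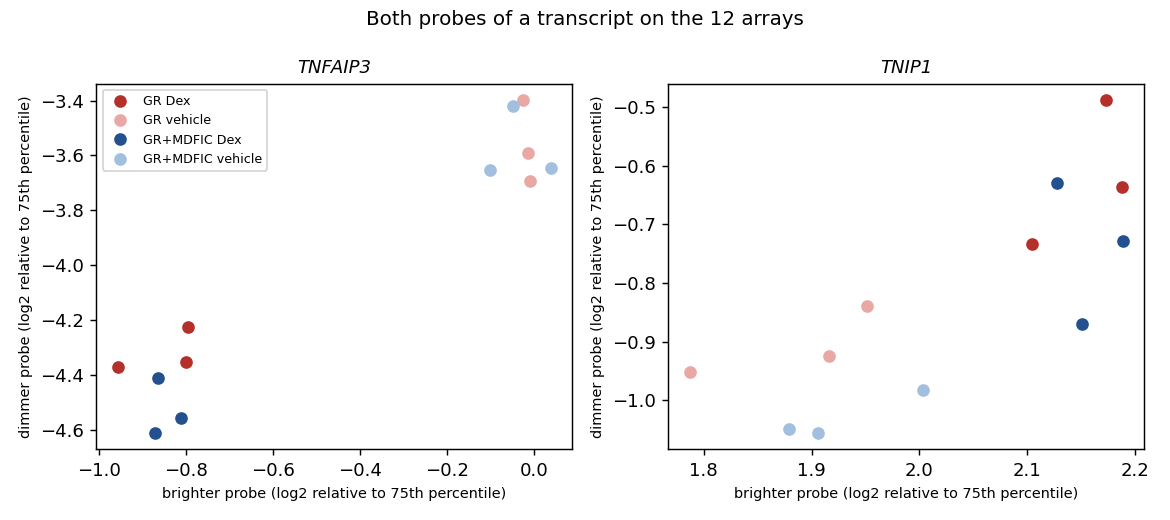
Level on the brighter probe (horizontal) against the dimmer probe (vertical) of TNFAIP3 and TNIP1, both on a log2 scale with the 75th percentile of the array at 0, with 1 point per array and 3 arrays per group. On both probes of TNFAIP3 the 6 Dex arrays lie below the 6 vehicle arrays; on the dimmer probe of TNIP1 the groups are separated within each kind of cell, while GR vehicle replicate 1 at -0.84 lies above GR+MDFIC Dex replicate 3 at -0.87.

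BIRC3 (NM_001165) encodes cIAP2, a ubiquitin ligase of the tumour necrosis factor receptor complexes and itself a known NF-κB target. It read -2.97, -3.01 and -2.93 on the GR Dex arrays, against -2.92, -3.17 and -2.94 on the GR vehicle arrays. The GR+MDFIC Dex arrays gave -3.25, -3.25 and -3.18, against -3.16, -3.44 and -3.38 on the GR+MDFIC vehicle arrays. The Dex and vehicle groups overlapped in both. Dex gave a log2 fold of 0.04 ± 0.09 (SE) in GR and 0.10 ± 0.09 in GR+MDFIC cells (limma, adjusted p = 0.896 and 0.456), with 95% intervals from -0.15 to 0.23 and from -0.09 to 0.29. Within slides it was 0.04 and 0.15.

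The 3 subunits all had negative log2 folds with Dex, of which only those of RELB and RELA in GR+MDFIC cells passed. RELB (NM_006509) encodes the partner of the NFKB2 product in the non-canonical pathway. It read 2.08, 1.97 and 1.84 on the GR Dex arrays, against 2.33, 2.27 and 2.12 on the GR vehicle arrays. With MDFIC co-expressed, the values were 1.75, 1.85 and 1.80 with Dex, against 2.32, 2.28 and 2.08 with vehicle. Neither pair of groups overlapped, and the lowest GR+MDFIC vehicle value was that on slide 3, the slide of the Dex arrays. The log2 fold was -0.28 ± 0.09 (SE) in GR cells, which did not pass (limma, adjusted p = 0.0926). In GR+MDFIC cells RELB fell to 0.746 of the vehicle level, a log2 fold of -0.42 ± 0.09 (SE, limma, adjusted p = 0.0114). Within slide 3 it was -0.28, and with slide as a fixed block it was not called (limma, adjusted p = 0.209), while the value within slide 1 for GR cells was -0.16.

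RELA (NM_021975) encodes p65, the main activating subunit of the canonical dimer. It read -0.32, -0.41 and -0.44 on the GR Dex arrays, against -0.23, -0.29 and -0.34 on the GR vehicle arrays. In GR+MDFIC cells it read -0.45, -0.49 and -0.47 with Dex, against -0.34, -0.26 and -0.26 with vehicle. The groups overlapped in GR cells and were apart in GR+MDFIC cells. The log2 fold was -0.11 ± 0.05 (SE, limma, adjusted p = 0.271) in GR cells, and -0.04 within slide 1. In GR+MDFIC cells RELA fell to 0.881 of the vehicle level, a log2 fold of -0.18 ± 0.05 (SE, limma, adjusted p = 0.0335). That call was lost with slide as a fixed block, where the log2 fold was -0.20 (limma, adjusted p = 0.173), and on leaving out any 1 of the GR+MDFIC Dex arrays, GR+MDFIC vehicle replicate 1 or 2, GR Dex replicate 2 or GR vehicle replicate 2 (limma, adjusted p up to 0.104, log2 fold -0.21 to -0.17).

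NFKB1 (NM_003998) encodes p105, the precursor of the p50 subunit. It read -1.21, -1.22 and -1.05 on the GR Dex arrays, against -1.10, -1.04 and -1.07 on the GR vehicle arrays. The GR+MDFIC Dex arrays gave -1.18, -1.14 and -1.09, against -0.94, -1.02 and -0.90 on the GR+MDFIC vehicle arrays. The groups overlapped in GR cells and did not in GR+MDFIC cells. NFKB1 had a log2 fold of -0.09 ± 0.06 (SE) in GR and -0.18 ± 0.06 in GR+MDFIC cells, and neither passed (limma, adjusted p = 0.446 and 0.0620). Within slides they were -0.14 and -0.24. Without GR Dex replicate 3 the fold in GR+MDFIC cells passed (limma, adjusted p = 0.0345, log2 fold -0.18).

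The probes of NFKB1 and RELA were each printed at 10 spots on every array, which gives the spread between spots of an array. The SD over the spots of 1 array had a median of 0.07 for NFKB1 and 0.04 for RELA, on the log2 scale. Were the spots independent, the standard error of an array's mean over its spots would be 0.02 and 0.01 (medians). They were not fully so, since the same spot of NFKB1 was the lowest on most arrays. The pooled SD of array means within groups, which holds both biological and technical spread, was 0.06 for NFKB1 and 0.05 for RELA. Outlier flags removed 1 of the 120 spots of NFKB1 and 15 of the 120 spots of RELA, among them the same RELA spot on every array.

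**Figure D3:**
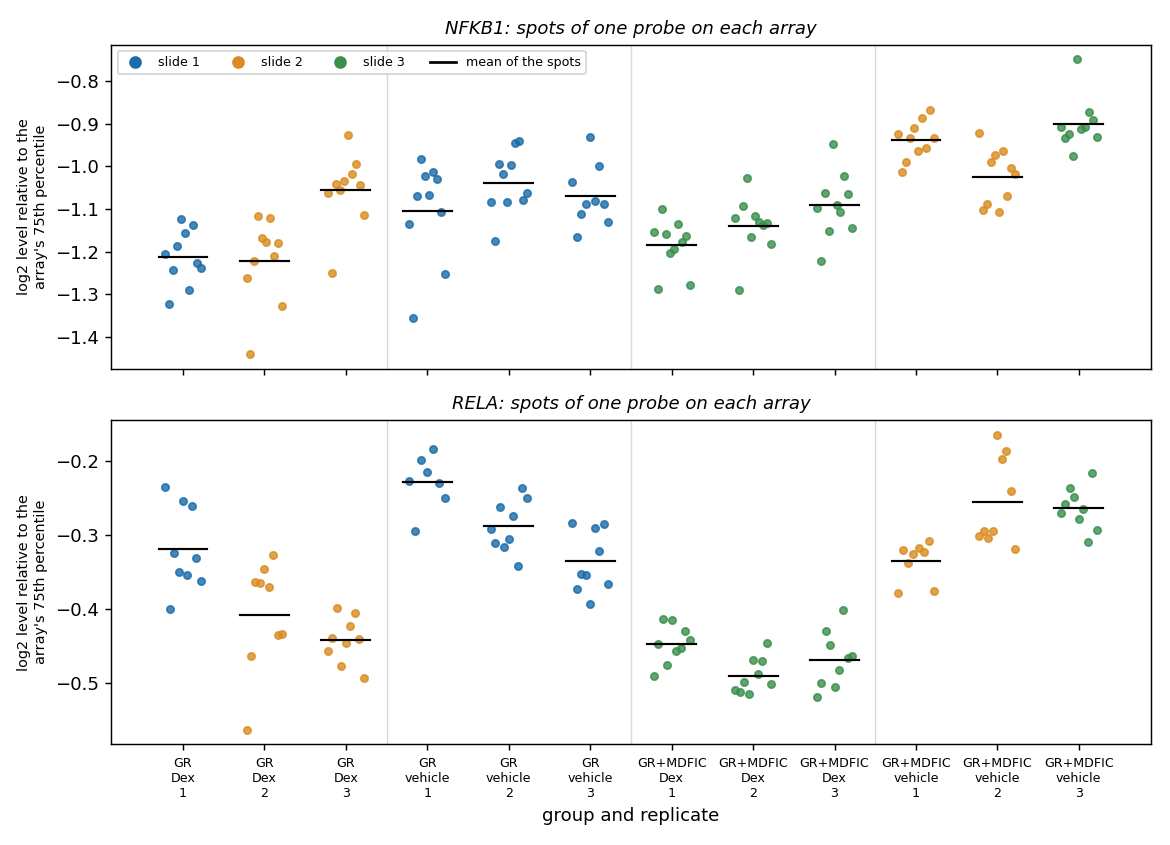
Spots of the NFKB1 and RELA probes on the 12 arrays (log2, with the 75th percentile of the array at 0, up to 10 spots per array, outlier spots left out), coloured by slide, with a line at the mean of each array. Array means of RELA lie at -0.49 to -0.45 in GR+MDFIC cells with Dex and at -0.34 to -0.26 with vehicle.

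The test of the difference between the 2 Dex effects called none of the 9 transcripts (limma, adjusted p at least 0.669), against 0.0589% of all tested. Without a slide block there were also 0 of the 9 at an unadjusted p under 0.05, and the share of all tested at that threshold was not counted. For NFKBIA the effect in GR+MDFIC cells minus that in GR cells was 0.11 on the log2 scale, with a 95% interval from -0.08 to 0.31. Within slides that difference was 0.28, from 0.03 to 0.52 (limma with slide as a fixed block, adjusted p = 0.9997). That interval, which is not adjusted for the number of transcripts tested, excluded 0. For TNFAIP3 it was 0.02, with an interval from -0.15 to 0.20, and -0.11 within slides. For RELB, which was called only in GR+MDFIC cells, it was -0.14, from -0.42 to 0.13, and -0.11 within slides. For RELA it was -0.08, from -0.23 to 0.07, and within slides -0.17, from -0.38 to 0.04. The difference for NFKBIZ was 0.13 and turned to -0.26 within slides. These intervals are wide beside the effects of RELB and RELA, so a difference between the 2 kinds of cells is neither shown nor bounded tightly. For NFKBIA and TNFAIP3 the intervals without the slide block are narrow beside the Dex effects themselves. The interval for NFKBIA within slides reaches 0.52, however. The second probe of TNFAIP3, fitted on its own, gave a difference of -0.20, from -0.50 to 0.10, the other sign from the brighter probe.

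**Figure D4:**
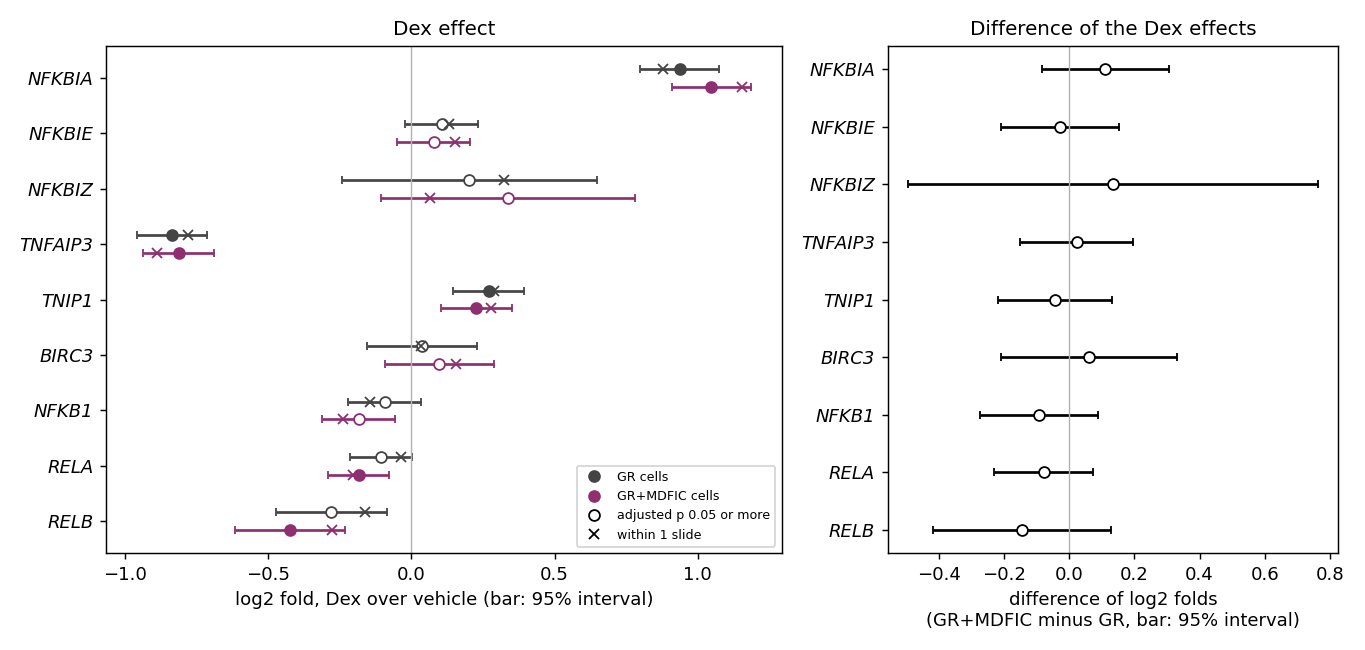
Left, log2 fold of Dex over vehicle with its 95% interval (limma) for GR cells and for GR+MDFIC cells, filled where the adjusted p is under 0.05, with crosses for the value within a single slide. Right, difference of the 2 log2 folds (GR+MDFIC minus GR) with its 95% interval. NFKBIA lies at 0.94 and 1.05 and TNFAIP3 at -0.84 and -0.81. Every interval of the difference drawn here, from the fit without a slide block, spans 0.

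MDFIC itself went with small differences that did not pass. In vehicle, the log2 folds of GR+MDFIC over GR cells lay between -0.32 and 0.12. None of the 9 was called (limma, adjusted p under 0.05), against 0.884% of all tested. At an unadjusted p under 0.05 there were 2, BIRC3 and NFKBIA, and the share of all tested at that threshold was not counted. The groups were apart for 1 of the 9, NFKB1, against 22.1% of all tested. In Dex the log2 folds lay between -0.26 and 0.17, again with none called (limma, adjusted p under 0.05), against 5.54% of all tested. At an unadjusted p under 0.05 there was 1, BIRC3, again with no share of all tested counted. The groups were apart for 2 of the 9, BIRC3 and RELA, against 32.2% of all tested. The lowest was BIRC3 in both, at -0.32 ± 0.09 (SE) in vehicle and -0.26 ± 0.09 in Dex (limma, adjusted p = 0.119 and 0.101). Its GR+MDFIC Dex arrays all lay below its GR Dex arrays, while the vehicle groups overlapped. NFKBIA in vehicle was at -0.16 ± 0.06 (SE, limma, adjusted p = 0.240). No slide held both arms of either MDFIC comparison, so no value within a slide could be given. With slide as a fixed block, which links the groups through slide 2, the log2 folds lay between -0.29 and 0.24 in vehicle and between -0.18 and 0.15 in Dex. RELB was then at 0.24 in vehicle, against -0.01 without the block, and at 0.12 in Dex, against -0.16. NFKBIZ in Dex was at -0.18, against 0.17 without it. BIRC3 was at -0.29 ± 0.17 (SE) in vehicle and -0.17 ± 0.17 in Dex (limma, adjusted p = 0.601 and 0.880). Among the GR+MDFIC vehicle arrays, NFKBIA read 1.46 on slide 3, against 1.70 and 1.54 on slide 2.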

How the data were processed

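RNA (500 ng, labelled with Cy3) was read on 12 one-colour Agilent arrays. The deposited values are intensities: per the file headers, Feature Extraction (version 12 in the submitters' processing notes, 12.0.0.7 on slides 1 and 2 and 12.0.3.1 on slide 3) gave a background-subtracted, detrended processed signal, not scaled between arrays, plus flags for background, saturation and outliers. The deposited series table holds the same intensities (largest difference 0).

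From the log2 of each processed signal, its array's 75th percentile over non-control spots was subtracted. Outlier spots were left out, and spots of a probe were averaged. A probe was kept if some group had it well above background on its 3 arrays and each group had 2 or more unflagged arrays, and the brightest probe stood for its accession. A probe of several spots counted as well above background where most of its spots did. A group-means model was fitted over all 12 arrays in limma 3.58.1 (R 4.3.3, 8 residual degrees of freedom), two-sided, with Benjamini-Hochberg adjustment over 23757 accessions and a call under 0.05. The fit was tested on simulated data for Dex in GR cells only, with independent noise and no slide effect. That cannot show how the slide layout bears on the calls. The R package data.table (version 1.17.8) read the files, and matplotlib 3.10.9 under Python 3.11.15 drew the plots. The number of arrays limits the precision.

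Gene names are those of the list that chose the transcripts; the members and lists were chosen with earlier results of these data known. All members were to be named, with the 3 accessions starting with NM most correlated with NFKBIA, the transfected genes and a list of pathway genes and markers by symbol. The transfected genes, the pathway genes and the markers were not looked up, since the files hold no symbols and no table of names was used here. The alternatives were median or quantile scaling, normexp together with quantile scaling (on median signals), the deposited series table, no filter or a stricter one on dim probes, the mean of an accession's probes or each probe alone, slide as a fixed or random block, a replicate block, fits of the compared groups only, an intensity trend with robust variance, and leaving out single arrays. No probe, promoter or protein sequence was used here. Same-numbered replicates were not paired: the correlations of their deviations from the group means ran from -0.11 to 0.06.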

Additional observations from a re-analysis of the deposited data

How the results depend on the processing

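The 4 calls of NFKBIA and TNFAIP3 with Dex kept their direction and stayed under 0.05 in all 25 alternatives run for each, with log2 folds from 0.88 to 0.96 and 0.99 to 1.16 for NFKBIA and from -0.86 to -0.67 and -0.89 to -0.65 for TNFAIP3 in GR and GR+MDFIC cells. No called transcript changed sign. The count of 3 calls in GR cells was 2 to 4 and that of 5 in GR+MDFIC cells 2 to 6: 2 with slide as a fixed block, where 3.41% of all transcripts were called, 3 with the compared groups alone, and 3 to 6 on leaving out single arrays (2 to 3 in GR cells). The other 3 counts were 0 throughout, also on leaving out single arrays, except that BIRC3 (1 call) passed for MDFIC in Dex with the compared groups alone (limma, adjusted p = 0.0343). The replicate block gave 4 and 6 calls, adding RELB in GR cells and NFKB1 in GR+MDFIC cells (limma, adjusted p = 0.0438 and 0.0495), and no other call changed. Over all transcripts, that block called fewer than the main fit in GR cells and more in GR+MDFIC cells. RELB in GR cells also passed with an intensity trend and robust variance (0.0484), where more of all transcripts were called than in the main fit. TNIP1 was lost with the compared groups alone (0.0738 and 0.0746) and, in GR+MDFIC cells, with median scaling (0.0737). RELA was lost with the compared groups alone (0.0891) and with no filter on dim probes (0.0665). Causes were not tested. NFKBIZ alone was not tested where all arrays had to be well above background. The second probe of TNFAIP3 carried that flag on all arrays, although its signal in GR+MDFIC cells with Dex was also low.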

Other observations

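Only transcripts whose identifier starts with NM were ranked by how closely their levels followed NFKBIA over the 12 arrays. The closest of them were NM_007256 (Pearson r = 0.996, Dex log2 folds of 2.55 in GR and 2.80 in GR+MDFIC cells) and NM_001013642 (r = 0.994, Dex log2 folds of 0.54 and 0.64). The arrays fall into Dex and vehicle groups and share 3 slides, so these values describe a common separation by treatment and carry no test. The third, NM_015508, had r = 0.993 and Dex log2 folds of 1.07 in GR and 1.19 in GR+MDFIC cells. The files give no gene names for them.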
